A study of Mus musculus with 2 samples.

Results

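Mir128-1, Mir128-2, Mir153 and Mir139 are 4 microRNA genes that lie inside introns of protein-coding genes with known neuronal expression. They were found by Ensembl identifier, by matching it to its GENCODE M21 symbol, and all 4 of the symbols had a row among the 1973 gene rows of the deposited tables. The data are microRNA sequencing of mouse hindbrain at embryonic day 15.5, in 2 biological replicates of strain B6NCrl. Replicate 1 pooled the hindbrains of 78 embryos of both sexes and replicate 2 those of 62. There was 1 group, with no treatment, other tissue or other age, so the design gives the level of each gene and the spread between 2 pools.

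MicroRNA hairpins in introns are usually transcribed with the host gene and cut out of its primary transcript by the Microprocessor, and Dicer then releases a 5p and a 3p arm, of which mostly 1 is loaded into Argonaute. The loaded strand finds messenger RNAs chiefly by its seed, bases 2 to 8. miR-128 is a brain-enriched microRNA that restrains neuronal excitability, miR-153 is a brain-enriched microRNA known to repress alpha-synuclein, and miR-139 is an intronic microRNA of a phosphodiesterase gene that is abundant in brain. The hosts encode R3HDM1 and ARPP21, which both carry an R3H RNA-binding domain, PTPRN2, a transmembrane protein of dense-core vesicles, and PDE2A, which hydrolyses cyclic AMP and cyclic GMP. RNA of the hosts was not measured here.

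The hairpins are shown because the sequence decides which reads can be told apart. They come from RefSeq on GRCm38.p6, the build that mm10 stands for, where all 4 members matched. They are written 5′ to 3′ with the annotated 5p and 3p arms in capitals. They lie at chr1:128202361-128202430 on the plus strand (Mir128-1), chr9:112118636-112118711 on the minus strand (Mir128-2), chr12:117250817-117250885 on the plus strand (Mir153) and chr7:101475376-101475443 on the plus strand (Mir139).
Mir128-1: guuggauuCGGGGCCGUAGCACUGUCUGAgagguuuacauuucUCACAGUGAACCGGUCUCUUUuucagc
Mir128-2: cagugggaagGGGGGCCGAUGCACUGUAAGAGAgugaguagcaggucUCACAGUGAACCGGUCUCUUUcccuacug
Mir153: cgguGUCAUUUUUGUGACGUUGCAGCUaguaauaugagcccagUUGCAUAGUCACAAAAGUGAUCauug
Mir139: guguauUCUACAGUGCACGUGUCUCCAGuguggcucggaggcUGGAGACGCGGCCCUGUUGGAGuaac

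The 8 mature entries of these genes hold 7 distinct sequences, since Mir128-1 and Mir128-2 give the same 3p arm. They are grouped here by shared seed, with the seed in capitals.
miR-128-3p (Mir128-1 and Mir128-2): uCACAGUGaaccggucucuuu
miR-128-1-5p: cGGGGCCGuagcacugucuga
miR-128-2-5p: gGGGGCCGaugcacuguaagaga
miR-153-3p: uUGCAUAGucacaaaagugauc
miR-153-5p: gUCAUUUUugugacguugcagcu
miR-139-5p: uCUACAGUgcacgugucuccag
miR-139-3p: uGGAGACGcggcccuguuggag

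The 5p arms of the 2 miR-128 genes also share a seed, and no other mature form in the RefSeq table has it at bases 2 to 8. Counted from 1 at the 5′ end of miR-128-1-5p, they differ over 21 bases at 5 positions, C1G, U9A, A10U, C18A and U19A, written from miR-128-1-5p to miR-128-2-5p. No other mature form shares bases 2 to 8 with miR-153-3p, miR-153-5p, miR-139-5p or miR-139-3p either. The seeds of miR-128-3p and miR-139-5p overlap in part, out of register. The 6 bases ACAGUG, bases 3 to 8 of miR-128-3p, stand at bases 4 to 9 of miR-139-5p. Base 9 lies past the miR-139-5p seed.

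The 2 miR-128 hairpins share an unbroken stretch of 23 bases that holds the whole 3p arm, shown here in capitals with 4 bases on either side.
Mir128-1: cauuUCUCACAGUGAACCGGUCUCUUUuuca
Mir128-2: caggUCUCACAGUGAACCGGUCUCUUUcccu
A read of the annotated 21-base 3p arm therefore matches both genes equally. The tables list reads placed at several loci apart from the genes, at 2947397 reads in replicate 1 and 3596192 in replicate 2, and do not say which microRNAs they come from. Of the 50 windows of 21 bases in the Mir128-1 hairpin, 47 matched no other of the 2201 annotated microRNA hairpins searched on both strands, and so did 53 of 56 in Mir128-2. Windows of 24 bases were all unique in both. The gene counts of Mir128-1 and Mir128-2 are thus counts of the reads that could be placed at 1 of them, and the level of miR-128-3p itself is not given by them. Mir153 shared at most 10 bases with another annotated hairpin and Mir139 at most 11, so windows of 18 to 25 bases in them were all unique. Hairpins alone were searched, not the rest of the genome.

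Every member lies in an intron of its host, on the host's strand, with no exon over the hairpin in any annotated host transcript that spans it. The spanning transcripts are 2 of 16 for R3hdm1, 9 of 31 for Arpp21, 2 of 5 for Ptprn2 and 10 of 12 for Pde2a. Mir128-1 lies in intron 19 of 26 of the R3hdm1 transcript that GENCODE M21 marks as principal (R3hdm1-201), 5263 bases after the upstream exon in an intron of 14107. Mir128-2 lies in intron 19 of 20 of Arpp21-223, 471 bases after the upstream exon in an intron of 51873 bases. Mir153 lies in intron 19 of 22 of Ptprn2-201, near the end of a transcript that spans 791 kb, 765 kb from its start. Mir139 lies in intron 2 of 31 of Pde2a-202, 53.7 kb from the start of a span of 91.1 kb. None of the 4 hosts holds a second annotated microRNA gene, so each member is the sole microRNA of its host. The Mir153 hairpin also lies in an intron of the antisense gene Gm5441, and that of Mir139 in an intron of Gm45837, a protein-coding gene on the same strand.

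**Figure D1:**
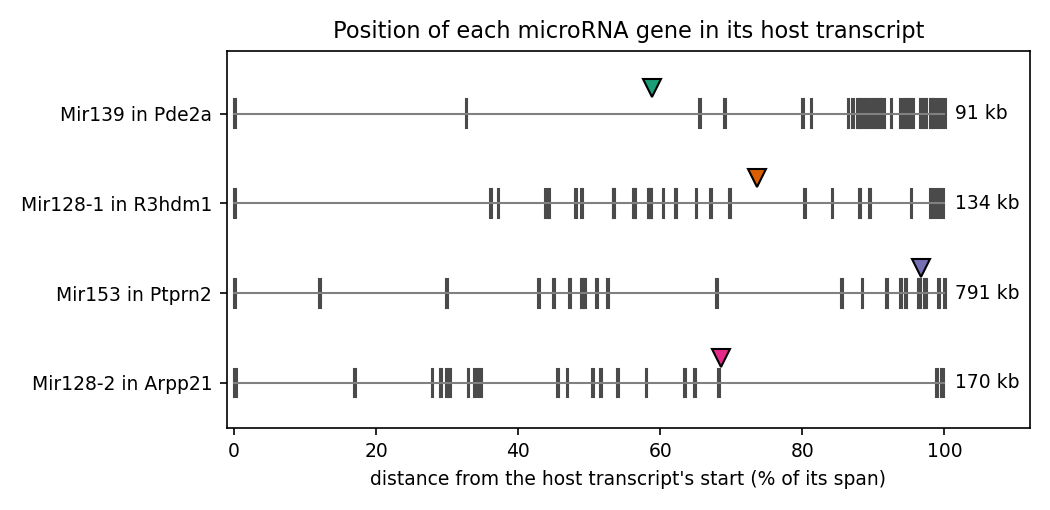
Position of each microRNA gene (triangle) along the principal transcript of its host, in % of the transcript's span, with exons as dark bars and the span in kb at the right. Mir139 lies 58.9% along Pde2a, Mir128-2 68.5% along Arpp21, Mir128-1 73.7% along R3hdm1 and Mir153 96.7% along Ptprn2.

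Levels are given as CPM, a gene's reads per 1000000 reads on the genes' own strand. These numbered 3937840 in replicate 1 and 4839647 in replicate 2. All 4 members were well covered: the lowest count was 4669 reads, against a floor of 3 reads (0.762 CPM in replicate 1 and 0.62 in replicate 2) that a count of 0 allows. Together they held 37768 and 47639 reads, or 0.972% ± 0.0179 of the gene reads (SD, n = 2). No read lay on the opposite strand of any member in either library.

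Mir139, in the phosphodiesterase gene Pde2a, was the highest member. It had 17990 reads in replicate 1 and 21277 in replicate 2, or 4568 and 4396 CPM, a mean of 4482 ± 122 (SD, n = 2). It stood at place 41 by mean level among the 721 genes with a read. Its share of the gene reads was 0.457% (95% exact interval 0.450 to 0.464) in replicate 1 and 0.440% (0.434 to 0.446) in replicate 2. Here and below, intervals treat reads as independent counts and cover counting error only, not the spread between pools. These reads carry no molecular identifiers, so duplicate reads could not be told apart.

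Mir128-1, in R3hdm1, came next with 8448 and 12195 reads, or 2145 and 2520 CPM (2333 ± 265, place 67). Its share was 0.215% (0.210 to 0.219) and 0.252% (0.248 to 0.257). Mir153, in the vesicle protein gene Ptprn2, had 6661 and 7274 reads, or 1692 and 1503 CPM (1597 ± 133, place 80). Its share was 0.169% (0.165 to 0.173) and 0.150% (0.147 to 0.154). Mir128-2, in Arpp21, had 4669 and 6893 reads, or 1186 and 1424 CPM (1305 ± 169, place 87). Its share was 0.119% (0.115 to 0.122) and 0.142% (0.139 to 0.146). Both miR-128 genes were thus higher in replicate 2, and Mir153 and Mir139 were higher in replicate 1.

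**Figure D2:**
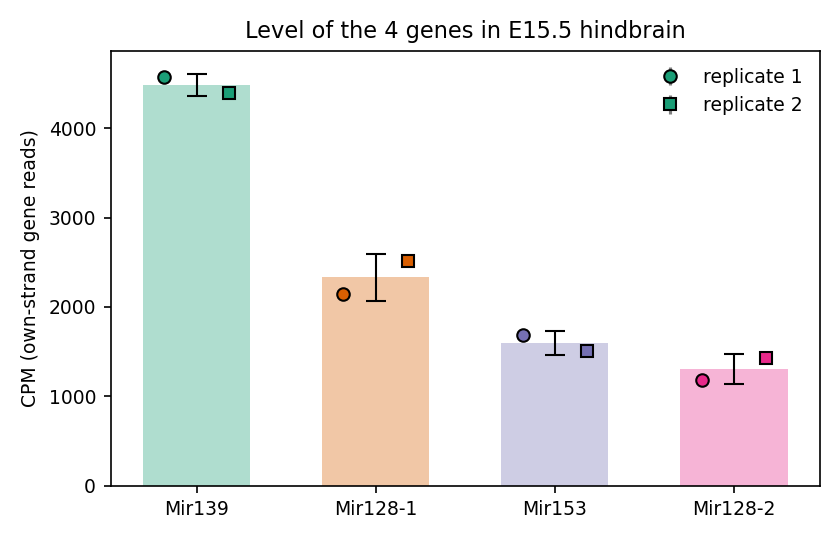
CPM of each gene in replicate 1 (circle) and replicate 2 (square), with bars for the mean, black whiskers for the SD over the 2 libraries and gray whiskers, mostly hidden by the symbols, for the exact 95% Poisson interval. Mir139 stands at 4396 CPM or more in both libraries, Mir128-1 at 2145 or more, and Mir153 and Mir128-2 lie between 1186 and 1692.

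The order Mir139, Mir128-1, Mir153, Mir128-2 was the same in both libraries. Mir139 exceeded Mir128-1 by 2.13-fold in replicate 1 and 1.74-fold in replicate 2, and Mir128-1 exceeded Mir153 by 1.27-fold and 1.68-fold. In both pairs the difference of the means was larger than the sum of the 2 SDs (2150 against 386 CPM, and 735 against 398). Mir153 exceeded Mir128-2 by 1.43-fold in replicate 1 but by 1.06-fold in replicate 2. Their means differed by 292 CPM, less than the sum of their SDs (302), so these neighbours were not separated beyond their spread. The hairpins are 68 to 76 bases long, and the order was the same per hairpin base, at 65.9, 33.3, 23.1 and 17.2 CPM per base. Reads placed at several loci could change the place of both miR-128 genes in this order.

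The 2 miR-128 genes kept nearly the same proportion to each other. Mir128-1 exceeded Mir128-2 by 1.81-fold in replicate 1 and 1.77-fold in replicate 2 (mean 1.79 ± 0.0284, SD, n = 2). It held 64.4% of the reads of the pair in replicate 1 (95% exact interval 63.6 to 65.2) and 63.9% in replicate 2 (63.2 to 64.6), and these intervals overlap. The pair had 13117 and 19088 reads, or 3638 ± 434 CPM, which would place it below Mir139 as a sum.

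Other brain microRNAs with 2 genes and a shared arm gave a scale for this. These pairs were picked after their values were seen, and each shares 22 to 26 bases between its hairpins. Mir138-1 held 62.8% and 63.0% of the reads of the miR-138 pair. Mir135a-1 held 54.7% and 54.3% of its pair with Mir135a-2. Mir129-2, with 70.5% and 67.1%, Mir7-1, with 65.2% and 60.7%, and Mir218-2, with 85.3% and 82.4%, moved more between the libraries. The intervals of the 2 libraries overlapped for miR-138, miR-135a, miR-129 and miR-218 and did not for miR-7. In a further pair, not plotted, Mir9-3 held 99.7% and 99.5% of the reads with overlapping intervals, but its ratio to Mir9-2, which had 6 and 17 reads, was 332 in replicate 1 and 184 in replicate 2. In all of them, as in miR-128, the split is of reads that could be placed at 1 gene.

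**Figure D3:**
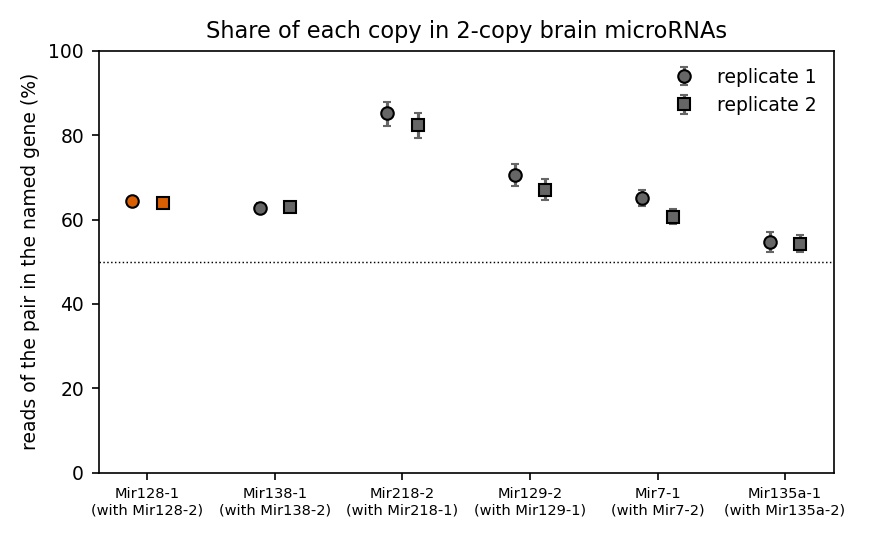
Share of the reads of each gene pair that lay in the first-named gene, in % with exact 95% intervals, for replicate 1 (circle) and replicate 2 (square); the dotted line marks equal shares. Mir128-1 (orange) held 64.4% and 63.9% of its pair, next to 62.8% and 63.0% for Mir138-1.

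The 2 pools were then compared to see how far each member varies between replicates. Replicate 2 was divided by replicate 1 after TMM scaling, and an exact conditional binomial test was run, with Benjamini-Hochberg adjustment over the 426 genes that reached 10 reads in either library. Mir128-1 was higher in replicate 2 by a log2 ratio of 0.22 (95% exact interval 0.18 to 0.26) and Mir128-2 by 0.25 (0.19 to 0.30). Mir153 was lower, at -0.19 (-0.24 to -0.14), and so was Mir139, at -0.07 (-0.10 to -0.04). The adjusted p of the exact binomial test was 4.64e-25 for Mir128-1, 9.29e-19 for Mir128-2, 1.76e-13 for Mir153 and 4.39e-06 for Mir139.

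All 4 members thus passed the threshold of 0.05, 2 in each direction, where 35.9% of all genes tested did, 15.3% as higher and 20.7% as lower in replicate 2. Among the 97 genes whose mean reached 1000 CPM, as that of every member did, 84.5% passed, so at this depth a call is the usual outcome. The test compares 2 libraries and covers counting error only. The size of the differences was between 1.05-fold and 1.19-fold, and no member differed by 1.5-fold.

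The differences were then set against the spread between the pools. The biological coefficient of variation over all genes tested was 10.5%, at which 1 SD of a log2 ratio between 2 libraries is 0.21. Mir153 and Mir139 lay within it, and Mir128-1 and Mir128-2 lay just outside. Over the 97 genes above 1000 CPM alone, the SD of the log2 ratios was 0.183. Mir139 lay within that SD, and the other members, Mir153 at -0.187 included, lay outside. Of the 97 genes above 1000 CPM, 12 had a larger log2 ratio in size than Mir128-2, 17 than Mir128-1, 22 than Mir153 and 71 than Mir139. When the test instead allowed each gene a coefficient of variation of 0.1 between pools (exact test of edgeR), 1.41% of all genes passed and 0 of the 4 members, 0 of them also at an unadjusted p under 0.05. This assumed value is close to the 10.5% estimated from the same 2 libraries, so the test is not a separate measure of the spread. The median log2 ratio was 0.07 over the members, -0.01 over all genes tested and -0.07 over the genes above 1000 CPM.

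**Figure D4:**
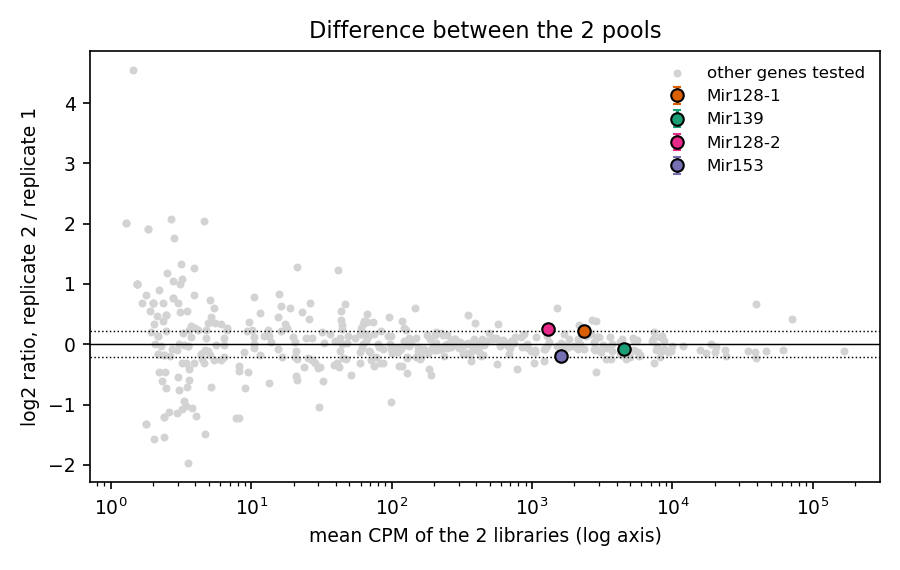
Log2 ratio of replicate 2 over replicate 1 against the mean CPM (log axis) for the 426 genes tested, with the 4 members in colour and their exact 95% intervals, which are smaller than the symbols. Dotted lines mark 1 SD of a ratio (0.21) at the estimated coefficient of variation; Mir153 and Mir139 lie between them and the miR-128 genes just above.

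Whole hindbrain holds many cell types, and more cells of a type cannot be told apart from more RNA per cell. Counts of microRNAs of several cell types and of axial position also differed between the 2 libraries. For these too, the exact binomial test covers counting error only and not the spread between pools. Log2 ratios were 0.38 for Mir449a (ciliated epithelium), 0.32 for Mir204 (choroid plexus), -0.20 for Mir126a (endothelium), -0.17 for Mir143 (smooth muscle), -0.51 for Mir223 (leukocytes), and -0.36 and -1.05 for Mir451a and Mir144 (erythroid cells). None of these 7 was at 0 in either library, and their mean levels ran from 30.5 CPM (Mir144) to 24151 (Mir126a). The ratios of Mir126a and Mir143 lay within 1 SD of a log2 ratio between 2 libraries (0.21, from all genes tested), and the others outside it. Mir126a lay outside the SD of 0.183 of the genes above 1000 CPM, and Mir143 within it. For Mir10a, Mir10b and Mir196b, which lie in Hox clusters, the log2 ratios were 0.41, 0.67 and 1.24. Neural microRNAs went both ways: the ratio was 0.14 for Mir137 and 0.34 for Mir9-3, both called higher, and -0.10 for the brain-enriched Mir135b, called lower. Mir9-2 and the 3 Mir124a genes, at 21 reads or fewer in each library, had ratios from -0.47 to 1.19 and did not pass. The part of these in the members' ratios was not tested. As a check of the tissue, Mir137 stood at 8360 ± 637 CPM and Mir10a at 71261 ± 14943, while the 3 Mir124a genes had 6 to 21 reads each and share sequence with one another. Liver Mir122 and striated muscle Mir206 stood at 46.3 ± 15.2 and 25.3 ± 2.70 CPM, with log2 ratios of 0.66 and -0.24.

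The members were set beside other microRNAs of neuronal hosts, a list of 14 genes with all 14 in the tables. Its median level was 164 CPM against 1965 for the 4 members, and 1 of its genes stood above Mir139, 2 above Mir128-1, and 3 above Mir153 and Mir128-2. These were Mir149, in the glypican gene Gpc1, at 20337 ± 297 CPM, Mir1298, in the serotonin receptor gene Htr2c, at 2684 ± 545, and Mir204, in Trpm3, at 2168 ± 355. Mir218-1 and Mir218-2 of the list share 22 bases. Their levels, and those of the 2 miR-128 genes, count only reads that could be placed at 1 gene. Of the 14 genes, 4 were higher in replicate 2 and 2 lower by the same test, beside 15.3% higher and 20.7% lower over all genes tested. The median log2 ratio was 0.03, and -0.01 over all genes tested. The 4 higher genes, Mir1298, Mir204, Mir448 and Mir1264, lie in Htr2c and Trpm3, both of which the choroid plexus also expresses. Their log2 ratios of 0.40, 0.32, 0.48 and 0.21 were near or above those of the miR-128 genes. Mir1912 of the same list, also in Htr2c, had 19 and 20 reads. Its log2 ratio was -0.24 (-1.22 to 0.75), and it did not pass. Whether the amount of choroid plexus in the pools had a part in any of these ratios was not tested.

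The brain-enriched list, which shares Mir218-1 and Mir218-2 with the one above, held 20 symbols, of which 19 had a row. Its median was 209 CPM, and 2 of its genes stood above all 4 members: Mir137, at 8360 ± 637 CPM, and Mir135b, at 7686 ± 299. Next, below Mir128-2, was Mir138-1 at 1274 ± 95.1 CPM. The list holds gene pairs of miR-138, miR-129, miR-7, miR-135a, miR-218 and miR-9 that share 22 to 26 bases. Its Mir124a genes also share sequence with one another. The levels of all these, and thus the list's median, count only reads that could be placed at 1 gene. Of the 19 genes, 6 were higher in replicate 2 and 1 was lower, beside the same 15.3% and 20.7% over all genes tested. The median log2 ratio was 0.12, and -0.01 over all genes tested.

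**Figure D5:**
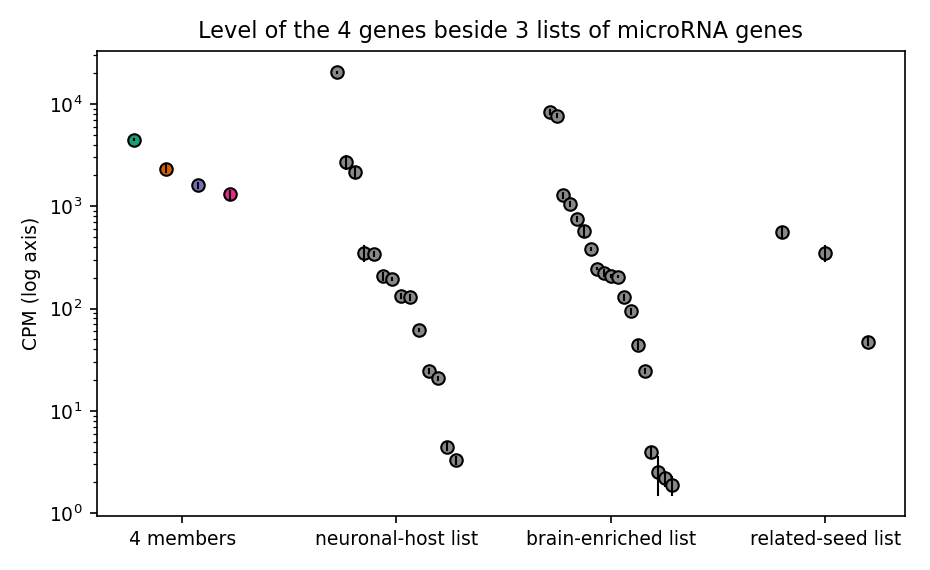
Mean CPM (log axis) of each gene, with a vertical line between its 2 libraries, for the 4 members and 3 lists of microRNA genes in falling order. The members span 1305 to 4482 CPM, and 3 genes of the neuronal-host list and 2 of the brain-enriched list stand above Mir153.

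Genes whose mature form carries the miR-128-3p seed in another register were all lower than either miR-128 gene. The 7 bases of the seed, in capitals, stand at bases 3 to 9 of the 2 miR-27 forms, which have roles in muscle, fat and blood vessels, and at bases 1 to 7 of miR-216a-3p.
miR-27a-3p: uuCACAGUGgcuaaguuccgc
miR-27b-3p: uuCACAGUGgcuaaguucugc
miR-216a-3p: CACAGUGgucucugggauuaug
Mir27b had 2432 and 2421 reads (559 ± 83.0 CPM), Mir27a had 202 and 213 (47.7 ± 5.15) and Mir216a had 214 and 347 (63.0 ± 12.3). Mir27b was lower in replicate 2 by a log2 ratio of -0.32 (-0.40 to -0.24), opposite in direction to both miR-128 genes (exact binomial test, adjusted p = 9.31e-14). Mir27a, at -0.24 (-0.52 to 0.05), did not pass. Mir216a was higher in replicate 2, as both miR-128 genes were, by a log2 ratio of 0.38 (0.13 to 0.64; exact binomial test, adjusted p = 0.00778).

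For miR-153-3p the nearest relative with reads was miR-448-3p, from an intron of Htr2c, which shares bases 2 to 7.
miR-448-3p: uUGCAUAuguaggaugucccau
Mir448 had 1138 and 1972 reads (348 ± 83.8 CPM), below Mir153 in both libraries. It was higher in replicate 2 by a log2 ratio of 0.48 (0.37 to 0.59), whereas Mir153 was lower. For miR-139-5p, the 6 bases UACAGU, its bases 3 to 8, open miR-101a-3p and stand at bases 2 to 7 of miR-101b-3p.
miR-101a-3p: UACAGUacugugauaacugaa
miR-101b-3p: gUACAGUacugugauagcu
Mir101a stood at 460 ± 17.7 CPM and Mir101b at 1311 ± 31.0, both below Mir139, as was Mirlet7f-2 (2827 ± 107 CPM), whose 3p arm holds the same 6 bases at 4 to 9. The other genes with a row and 6 seed bases of a member in their bases 1 to 9 stood at 435 CPM (Mir3071, bases shared with miR-153-5p) or less. Mir664, which also shares bases with miR-153-5p, had no row, so its level is not known. A gene row does not separate the 5p from the 3p arm, so these levels are of genes and not of the strand that carries the shared bases.

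The genes closest to each member in level were found by the Euclidean distance of log2(CPM + 1) over the 2 libraries. Closest to Mir128-1 were Mir431 (2404 ± 186 CPM, distance 0.08), Mir204 and Mir434. Closest to Mir128-2 were Mir34c (1319 ± 178 CPM, distance 0.02), Mir138-1 and Mir101b. Closest to Mir153 were Mir16-1 (1581 ± 57.2 CPM, distance 0.07), Mir433 and Mir467d, and closest to Mir139 were Mir652 (4400 ± 280 CPM, distance 0.07), Mir181a-1 and Mir130b. With 2 libraries of 1 tissue, this measures a like level in reads and nothing more.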

How the data were processed

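Mouse hindbrain microRNA libraries (n = 2, 1 group) were analysed from gene tables. The authors deposited raw read counts per gene on mm10 with GENCODE M4 genes, as the notes deposited beside the tables state; for the aligner, the trimming and the counter, nothing is given in the sources used here. The count on the gene's own strand was used, taken as the single-strand column with the larger total, since the tables have no header. Entries other than genes did not enter the library sizes (unmapped 13.7% and 15.8%, no gene 2.56% and 2.96%); reads at several loci were 35.4% and 34.2% of all reads. Symbols, introns and hairpins came from GENCODE M21, and mature forms from RefSeq (GRCm38.p6).

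TMM scaling and dispersion came from edgeR 4.0.16 (R 4.3.3) over all 426 genes tested, and the exact binomial test from scipy 1.17.1 (Python 3.11.15, numpy 2.4.6). With 1 library on each side no quasi-likelihood test exists. Calls use an adjusted p of 0.05. The binomial procedure was tried on simulated counts with counting error only and fold changes larger than those of the members. It therefore could not show how the test behaves under spread between pools. DESeq2 1.42.0 size factors, total counts, counts of both strands, other count minimums, other scalings of CPM and assumed coefficients of variation were the alternatives. Members and lists were chosen with earlier results of these data known. The named genes were the members, seed relatives, the 3 genes nearest each member in level and the 3 highest of each list; related seeds were Mir27a, Mir27b and Mir448.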

Additional observations from a re-analysis of the deposited data

How the results depend on the processing

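Scaled by all reads of the library rather than by gene reads, the levels were 1087 CPM for Mir128-1, 608 for Mir128-2, 746 for Mir153 and 2093 for Mir139, in the same order. TMM library sizes and counts of both strands moved no member's level by as much as its SD. Leaving out either library left the ratio of Mir128-1 to Mir128-2 between 1.77 and 1.81. Under DESeq2 size factors, total counts, counts of both strands and minimums of 1 or 100 reads, all 4 members kept their direction and passed the exact binomial test. Log2 ratios ranged from 0.22 to 0.25 for Mir128-1, 0.25 to 0.28 for Mir128-2, -0.19 to -0.16 for Mir153 and -0.07 to -0.04 for Mir139, whose largest adjusted p was 0.0278. The count of all genes called was 153 and lay between 137 and 163. The exact test of edgeR passed 6 of all genes and 0 members when a coefficient of variation of 0.1 was assumed. At 0.2 it passed 0 genes (12 had an unadjusted p under 0.05) and 0 members. These tests allow for a spread between pools that is assumed and not measured, and the binomial test leaves such spread out. Per hairpin base, a comparison added after seeing the data, the ratio of Mir153 to Mir128-2 was 1.37 rather than 1.24. Depth limits none of the 4 levels. Reads at several loci limit those of the 2 miR-128 genes. For Mir153 and Mir139 only other hairpins were searched, so reads lost to the rest of the genome are not known.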
